A study of Mus musculus with 24 samples.

Results

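The 8 genes described here act on extracellular pyrophosphate, phosphate and the mineral that phosphate forms with calcium. They were taken as a list of names (Ank, Abcc6, Alpl, Phospho1, Slc20a1, Slc20a2, Spp1 and Mgp), chosen with earlier results of these data known. All 8 were found among the 35413 genes to which deposited transcripts could be assigned, and all 8 passed the filter on low counts in both experiments. Kidney RNA was sequenced in 24 libraries. In the knockout experiment, 6 libraries carry the label ENPP1 knockout (ENPP1 fl/fl crossed with CAG-ERCre, Cre-positive, with the deletion induced by tamoxifen; adenine diet for 14 days) and are called KO-labelled here. Another 6 came from Cre-negative wild-type mice (WT) on the same diet for 14 days, and 4 from a chow-fed control group. CAG is a ubiquitous promoter, so the deletion was not directed at a kidney cell type, and Cre differs between the KO-labelled and the WT group along with the deletion. In the antibody experiment all mice ate the adenine diet for 14 days, and 4 libraries came from mice given a monoclonal antibody to human ENPP1 and 4 from mice given control IgG, each at 50 mg/kg into the peritoneum, 2 injections per week. The labels leave unstated which genotype the chow mice had, whether WT and chow mice received tamoxifen, which exons are deleted, and the sex, age and strain. They also do not say if human ENPP1 is present in the antibody-treated and IgG-treated mice. The labels do not say that every library is a separate animal, so p-values measure the spread between these libraries.

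Pyrophosphate blocks the growth of calcium phosphate crystals. Cells release ATP, and ENPP1 on the cell surface splits it into AMP and pyrophosphate; Abcc6 and Ank help bring ATP or pyrophosphate out of the cell. Alpl, the tissue-nonspecific alkaline phosphatase, breaks pyrophosphate down to phosphate, and Phospho1 releases phosphate from phosphocholine and phosphoethanolamine inside matrix vesicles of bone and cartilage. Slc20a1 and Slc20a2 carry phosphate into cells with sodium. Spp1 encodes osteopontin and Mgp encodes matrix Gla protein, secreted proteins that bind mineral and restrain its growth. Adenine is oxidised to a poorly soluble purine that precipitates in renal tubules, and osteopontin is a known product of injured tubules.

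Start-site sequences of 5 of the 8 genes (Ank, Alpl, Slc20a1, Spp1 and Phospho1) were in the RefSeq promoter table of GRCm38.p6. The bases before the start are shown for Spp1 and Slc20a1, which were both higher on adenine and lower in KO-labelled than in WT kidneys, and for Ank and Alpl, which went the other way on both counts in the scaled counts described below. The Spp1 stretch is chr5:104434861-104435110 and the Slc20a1 stretch chr2:129198523-129198763, both on the plus strand. The Ank stretch is chr15:27466427-27466676 on the plus strand, and the Alpl stretch, before the transcript Alpl-201 that held nearly all Alpl signal, is chr4:137796385-137796634 on the minus strand. Each is written 5′ to 3′ along its gene, and capitals mark matches to any of 6 searched motifs.
Spp1: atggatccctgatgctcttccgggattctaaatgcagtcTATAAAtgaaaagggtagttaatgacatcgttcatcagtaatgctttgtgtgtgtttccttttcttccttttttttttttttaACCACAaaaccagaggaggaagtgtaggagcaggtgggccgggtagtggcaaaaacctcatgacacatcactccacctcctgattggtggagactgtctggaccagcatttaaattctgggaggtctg
Slc20a1: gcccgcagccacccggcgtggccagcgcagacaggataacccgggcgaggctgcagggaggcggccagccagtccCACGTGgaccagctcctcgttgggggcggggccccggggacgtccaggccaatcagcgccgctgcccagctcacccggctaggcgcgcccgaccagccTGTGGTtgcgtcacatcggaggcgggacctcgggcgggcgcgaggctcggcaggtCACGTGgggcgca
Ank: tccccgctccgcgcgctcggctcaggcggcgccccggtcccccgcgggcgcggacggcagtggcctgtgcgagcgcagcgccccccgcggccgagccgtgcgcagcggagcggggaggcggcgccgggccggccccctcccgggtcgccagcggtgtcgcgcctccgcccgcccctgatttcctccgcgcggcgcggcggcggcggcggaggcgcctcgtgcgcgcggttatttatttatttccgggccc
Alpl: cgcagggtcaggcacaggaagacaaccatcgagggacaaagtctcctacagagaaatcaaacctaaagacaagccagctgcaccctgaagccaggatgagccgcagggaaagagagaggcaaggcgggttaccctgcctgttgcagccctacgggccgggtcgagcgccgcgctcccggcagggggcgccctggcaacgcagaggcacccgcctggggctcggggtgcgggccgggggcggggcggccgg

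The motifs were the TATA element with letters TATAAA, the AP-1 motif with letters TGANTCA, the RUNX motif with letters TGTGGT, the E-box with letters CACGTG, the NF-kB motif with letters GGGANTTCC and the CRE motif with letters TGACGTCA, each on both strands, from 250 bases before to 50 after the start. None of the matches in these windows overlaps another. The Spp1 window has TATAAA at position -211 from the start and, on the other strand, the RUNX motif at -128. In the Slc20a1 window CACGTG lies at -175 and at -22 and TGTGGT at -77, and a TATAAA begins at -1, past the printed stretch. The Ank window and the window before Alpl-201 hold none of the 6. The Phospho1 window, not printed, has TGACTCA at -224 and CACGTG at -215. Of 32851 windows of the same length in the table, TATAAA is in 13.6%, TGANTCA in 7.8%, TGTGGT in 16.8%, CACGTG in 7.2%, GGGANTTCC in 1.7% and TGACGTCA in 1.8%. A match describes letters in a window and says nothing about binding.

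Each knockout-experiment library had between 21164187 and 28350038 assigned reads, and the antibody-experiment libraries were deeper, with 44080791 to 50813749. Levels are read counts relative to library size (CPM) scaled by TMM, a composition correction, within each experiment. Changes are log2 with the standard error (SE), and a gene is called when its Benjamini-Hochberg adjusted p from edgeR's quasi-likelihood test over all genes is under 0.05. Enpp1 RNA does not set the KO-labelled libraries apart. It ranged from 21.6 to 24.7 CPM with a median of 22.4 in KO-labelled kidneys, against 20.9 to 24.9 CPM with a median of 21.3 in WT kidneys (log2 change 0.05 ± 0.051, adjusted p = 0.466). Reads summed over the whole gene need not show a deletion of unnamed exons, so this check cannot tell whether the gene was deleted. Directions given for KO-labelled libraries below rest on that label. Enpp1 RNA in the antibody libraries was 9.51, 2.62, 3.26 and 17.4 CPM, against 7.94, 8.86, 8.68 and 7.22 CPM with IgG.

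Of the 8 genes, 5 were higher in KO-labelled than in WT kidneys on adenine (Ank, Abcc6, Alpl, Phospho1 and Mgp), 2 were lower (Slc20a1 and Spp1), and Slc20a2 was not called. Over all 16959 genes tested, 25.1% were called higher and 21.3% lower in this comparison. The members' median log2 change was 0.53, and that of all genes -0.02. Each of the 7 calls held its direction and its side of the threshold under all scalings, filters and left-out libraries that were run. With the antibody against IgG, 2 genes were higher (Abcc6 and Slc20a2), 2 were lower (Spp1 and Mgp) and 4 were not called, where 27.2% of 16404 genes were called higher and 28.0% lower. The median was -0.18 for the members and -0.04 for all genes. WT kidneys on adenine had 3 genes higher than chow (Slc20a1, Spp1 and Mgp) and 3 lower (Ank, Alpl and Slc20a2), beside 44.0% of all genes higher and 40.9% lower, with medians of -0.09 and 0.07. KO-labelled kidneys on adenine had 5 higher than chow (Abcc6, Phospho1, Slc20a1, Spp1 and Mgp) and 3 lower (Ank, Alpl and Slc20a2), beside 40.2% and 39.9%, with medians of 0.92 and 0.03. The 3 comparisons of the knockout experiment share libraries. A large part of all genes moved in each comparison, and whether these counts set the list apart from other genes was not tested. In bulk tissue, fewer cells of a type and less RNA per cell cannot be told apart.

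Abcc6, a transporter on which cellular ATP release depends, had the largest fitted change of the 8 between KO-labelled and WT kidneys. It ranged from 19.3 to 30.7 CPM with a median of 27.8 in KO-labelled libraries, against 9.93 to 14.1 CPM with a median of 11.9 in WT libraries. All 6 KO-labelled libraries lay above the highest WT library. The fitted difference was 2.17-fold (log2 1.12 ± 0.10, adjusted p = 1.71e-07). In the antibody experiment Abcc6 was 3.53, 3.71, 3.45 and 3.95 CPM with the antibody, against 2.27, 2.12, 1.79 and 2.20 CPM with IgG. These groups did not overlap either, and the change was 0.81 ± 0.13 on the log2 scale (adjusted p = 0.000586). Allowing for transcript length in each library ended that call (0.71, adjusted p = 0.0682).

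Abcc6 levels against chow depended on the group. KO-labelled kidneys were above the chow libraries, which held 11.4, 10.1, 11.1 and 11.8 CPM (log2 1.24 ± 0.12, adjusted p = 1.97e-08). WT kidneys on adenine overlapped with chow and were not called (0.12, adjusted p = 0.355), although scaling by library size alone gave a call for WT over chow (0.77, adjusted p = 4.12e-06), as did upper-quartile scaling (0.35, adjusted p = 0.0103).

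Ank, the membrane protein through which cells export pyrophosphate and ATP, was higher in KO-labelled than in WT kidneys but below chow in both. KO-labelled libraries had 6.26 to 8.66 CPM with a median of 7.90, against 4.69 to 6.59 CPM with a median of 5.46 in WT libraries. In 5 of 6 KO-labelled libraries the value was above the highest WT library, and the change was 0.49 ± 0.093 (adjusted p = 0.000284). Chow libraries held 15.2, 13.5, 13.7 and 14.7 CPM, so every adenine library lay below them. The log2 change against chow was -0.87 ± 0.098 in KO-labelled kidneys (adjusted p = 1.36e-07) and -1.36 ± 0.10 in WT kidneys (adjusted p = 1.85e-10). With the antibody Ank was 3.76, 5.82, 4.41 and 4.39 CPM, against 5.05, 6.03, 5.52 and 4.14 CPM with IgG. The groups overlapped and no difference was called (-0.18, 95% interval -0.53 to 0.18, adjusted p = 0.380).

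Alpl, which removes pyrophosphate, was higher in KO-labelled than in WT kidneys. Its level ran from 210 to 392 CPM with a median of 311 in KO-labelled libraries, against 152 to 234 CPM with a median of 204 in WT libraries. All but 1 KO-labelled library exceeded the highest WT library (log2 0.62 ± 0.12, adjusted p = 0.000281). The chow libraries had 444, 464, 473 and 471 CPM, above every adenine library. Alpl fell by 1.22 on the log2 scale in WT kidneys relative to chow (SE 0.13, adjusted p = 3.75e-08) and fell by 0.60 in KO-labelled kidneys (SE 0.13, adjusted p = 0.000292). The call for KO-labelled over chow is lost when library size alone sets the scale (-0.04, adjusted p = 0.750). Antibody libraries held 160, 183, 172 and 160 CPM, against 189, 131, 135 and 113 CPM with IgG. The first IgG library was above all antibody libraries, and no difference was called (0.25, 95% interval -0.05 to 0.54, adjusted p = 0.146). Without that IgG library Alpl was called higher with the antibody (0.42, adjusted p = 0.00293).

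Phospho1 had the lowest mean TPM of the 8 genes in every group and was the most variable among KO-labelled libraries. It was counted at 56 to 182 reads per KO-labelled library, against 33 to 63 reads per WT library. In CPM it ranged from 2.29 to 6.67 with a median of 3.28 in KO-labelled kidneys, against 1.38 to 2.29 with a median of 1.96 in WT kidneys. The third and the fifth KO-labelled library, at 5.63 and 6.67 CPM, stood above the other 4. The change of 1.02 ± 0.23 was called (adjusted p = 0.00161). Chow libraries had 2.45, 2.31, 2.08 and 2.69 CPM. Against them KO-labelled kidneys were higher by 0.72 ± 0.27 (adjusted p = 0.0197), a call that ended without the fifth KO-labelled library (0.50, adjusted p = 0.0534), and WT kidneys were not called (-0.30, adjusted p = 0.316). In the antibody experiment only 5 to 27 reads per library were counted with the antibody, against 16 to 31 with IgG, which is 0.321, 0.116, 0.633 and 0.207 CPM with the antibody, against 0.471, 0.544, 0.289 and 0.382 CPM with IgG. The groups overlapped, and no difference was called at these low counts (-0.39, 95% interval -1.37 to 0.59, adjusted p = 0.476). Summed red blood cell markers ran from 204 to 492 CPM in KO-labelled libraries, against 12.5 to 35.7 CPM in WT libraries, and from 1072 to 1296 CPM in chow. All 5 of these markers were called higher in KO-labelled than in WT kidneys, beside 25.1% of all genes. Their part in the Phospho1 values was not tested.

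Slc20a1, a sodium-phosphate importer also known as a retroviral receptor, was the member with the clearest fall in KO-labelled kidneys. It ranged from 113 to 138 CPM with a median of 119 in KO-labelled libraries, against 139 to 232 CPM with a median of 180 in WT libraries. The groups did not overlap, though the highest KO-labelled and the lowest WT library were nearly level (138 and 139 CPM). The log2 change was -0.60 ± 0.10 (adjusted p = 0.000145). Both adenine groups were above the chow libraries, which held 49.9, 48.6, 63.5 and 57.7 CPM. The change against chow was 1.14 ± 0.12 in KO-labelled kidneys (adjusted p = 7.50e-08) and 1.74 ± 0.13 in WT kidneys (adjusted p = 1.56e-10). With the antibody Slc20a1 was 190, 176, 157 and 110 CPM, against 216, 162, 163 and 180 CPM with IgG, and no difference was called (-0.19, 95% interval -0.53 to 0.16, adjusted p = 0.328). Scaling by library size alone gave a call there (-0.42, adjusted p = 0.0284).

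Slc20a2, the second importer of the family and a gene of familial brain calcification in humans, was the only member without a call between KO-labelled and WT kidneys. Its range was 26.7 to 31.7 CPM with a median of 30.1 in KO-labelled libraries, against 27.2 to 30.7 CPM with a median of 28.9 in WT libraries (log2 0.04, 95% interval -0.06 to 0.14, adjusted p = 0.544). The sign of that small difference turns under upper-quartile scaling (-0.03) and with library size alone (-0.05). The antibody libraries held 46.3, 52.9, 42.4 and 48.6 CPM, against 35.9, 35.4, 38.5 and 31.0 CPM with IgG. All antibody libraries were above all IgG libraries (0.43 ± 0.086, adjusted p = 0.00154), a call lost with library size alone (0.19, adjusted p = 0.117). Chow libraries held 42.0, 42.2, 35.8 and 40.2 CPM. Against chow the TMM-scaled change was -0.43 ± 0.055 in KO-labelled and -0.47 ± 0.055 in WT kidneys (adjusted p = 6.53e-07 and 1.62e-07), but with library size alone both turn positive, to 0.13 (adjusted p = 0.0776) and 0.18 (adjusted p = 0.0195), so no direction of Slc20a2 against chow is settled.

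Spp1 had the highest TPM of the 8 genes in every group and was the one that differed most from chow. It ranged from 11716 to 16049 CPM with a median of 13366 in KO-labelled kidneys, against 13046 to 20495 CPM with a median of 16996 in WT kidneys. Only 2 of 6 KO-labelled libraries were below the lowest WT library, and the log2 change of -0.33 ± 0.10 was called (adjusted p = 0.0130). The chow libraries had 1794, 1728, 1622 and 1705 CPM. Spp1 was 7.93-fold above the chow mean in KO-labelled kidneys (log2 2.99 ± 0.13, adjusted p = 2.95e-13) and 9.97-fold above it in WT kidneys (log2 3.32 ± 0.13, adjusted p = 3.08e-14). In the antibody experiment Spp1 was 31468, 21880, 26022 and 19039 CPM with the antibody, against 40584, 41943, 40204 and 39305 CPM with IgG. Each antibody library was below each IgG library, and the antibody libraries differed more among themselves than the IgG libraries did. The log2 change was -0.72 ± 0.17 (adjusted p = 0.00397).

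As a share of all assigned reads, Spp1 alone took 1.46% ± 0.216 in KO-labelled kidneys (SD, n = 6), against 1.95% ± 0.325 in WT kidneys (SD, n = 6) and 0.124% ± 0.0068 in chow (SD, n = 4). It took 2.26% ± 0.528 with the antibody and 4.40% ± 0.406 with IgG (SD, n = 4 each). By reads it ranked from 5 to 10 among all genes in KO-labelled libraries, from 3 to 9 in WT libraries and from 48 to 52 in chow, from 3 to 8 with the antibody and at 2 in all IgG libraries. Injured tubule markers (Havcr1, Lcn2, Krt8, Krt20 and Vcam1), summed, ran from 725 to 1007 CPM in KO-labelled, against 812 to 1163 CPM in WT and 137 to 159 CPM in chow libraries. They ran from 1532 to 2210 CPM with the antibody, against 2169 to 2669 CPM with IgG. Of these 5 markers, none was higher and 2 were lower in KO-labelled than in WT kidneys, 4 were lower with the antibody than with IgG, and all 5 were higher than chow in both adenine groups. Of all genes, 21.3% were lower for KO-labelled over WT and 28.0% for antibody over IgG. Against chow 44.0% of all genes were higher in WT and 40.2% in KO-labelled kidneys. Macrophages also make osteopontin. Their 7 markers summed to 296 to 414 CPM in KO-labelled, against 267 to 409 CPM in WT libraries with 1 of 7 called lower, and to 126 to 185 CPM with the antibody, against 285 to 558 CPM with IgG with 7 of 7 called lower. The part of these cells in the Spp1 values was not tested.

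Mgp was the one member called in opposite directions in the 2 experiments. KO-labelled libraries had 210 to 277 CPM with a median of 248, against 145 to 193 CPM with a median of 167 in WT libraries. All KO-labelled libraries were higher (0.57 ± 0.072, adjusted p = 4.50e-06). Chow libraries held 106, 121, 115 and 114 CPM, below all adenine libraries of that experiment, with changes of 1.12 ± 0.084 in KO-labelled kidneys (adjusted p = 4.50e-10) and 0.54 ± 0.083 in WT kidneys (adjusted p = 6.01e-06). With the antibody Mgp was 66.1, 51.4, 74.1 and 50.5 CPM, against 117, 204, 150 and 98.2 CPM with IgG. Every antibody library was below every IgG library, and the IgG libraries spread over a wide range (-1.23 ± 0.21, adjusted p = 0.000650). Mgp is made by vascular smooth muscle and fibroblasts. The 7 markers of these cells summed to 368 to 541 CPM in KO-labelled, against 301 to 440 CPM in WT libraries. Of them 4 were called higher and 0 lower, beside 25.1% and 21.3% of all genes. In chow they summed to 273 to 293 CPM. Against chow 2 were called higher and 4 lower in each adenine group (median log2 -0.49 in WT and -0.32 in KO-labelled kidneys). Of all genes 44.0% were higher and 40.9% lower in WT kidneys, and 40.2% and 39.9% in KO-labelled kidneys. The markers summed to 111 to 168 CPM with the antibody, against 264 to 474 CPM with IgG. With the antibody 5 of 7 were called lower, beside 28.0% of all genes. Their part in the Mgp values was not tested.

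The difference between the effects (KO-labelled minus WT, less antibody minus IgG) was tested over the 20 adenine libraries, where 16.3% of 17113 genes were called positive and 21.6% negative. Among the members, 3 were called positive and 1 negative. Mgp had the largest difference, 1.73 ± 0.21 (adjusted p = 6.63e-06), and it was called under all alternatives run. Slc20a2 differed by -0.47 ± 0.093 (adjusted p = 0.000523), which library size alone reduces to -0.23 (adjusted p = 0.0936). Ank differed by 0.59 ± 0.19 (adjusted p = 0.0165), and by 0.57 with an adjusted p of 0.0536 when protein-coding transcripts only were summed. Phospho1 differed by 1.34 ± 0.52 (adjusted p = 0.0477), a call that many settings end, among them leaving out the second antibody library (1.06, adjusted p = 0.117). The difference was not called for Slc20a1 (-0.49, 95% interval -0.89 to -0.08, adjusted p = 0.0543), but it was without the fourth antibody library (-0.62, adjusted p = 0.00908). For Abcc6 (0.24, 95% interval -0.13 to 0.61, adjusted p = 0.313), Alpl (0.30, -0.13 to 0.72, adjusted p = 0.270) and Spp1 (0.32, -0.08 to 0.71, adjusted p = 0.201) it was not called. The experiments also differ in depth and in their own control mice, which cannot be told apart from the kind of intervention.

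Comparisons with chow depend on the scale. TMM factors were 1.04 to 1.14 in KO-labelled libraries and 1.06 to 1.24 in WT libraries, against 0.717 to 0.741 in chow. Scaling by library size alone moves the median of all genes up by 0.57 for KO-labelled over chow and by 0.65 for WT over chow. The split of calls then goes to 78.5% higher for KO-labelled over chow and 75.1% higher for WT over chow, against 50.2% and 51.8% with TMM. Spp1, Slc20a1 and Mgp were higher than chow on every scale tested. In TPM, the authors' value normalised for transcript length, ratios of group means to chow were higher than in scaled counts for all 8 genes. Ank kept a negative log2 ratio for KO-labelled over chow, at -0.87 in TMM-scaled CPM, -0.31 with library size alone and -0.10 in TPM, but in TPM the libraries overlapped (2.73 to 3.83 in KO-labelled kidneys, against 3.29 to 4.01 in chow). For WT over chow the Ank ratio was -0.53 in TPM. Alpl was lower than chow in WT kidneys on every scale, but its KO-labelled over chow ratio was 0.23 in TPM. Phospho1 turned for WT over chow, with a ratio of -0.31 in TMM-scaled CPM and 0.78 in TPM, where the libraries did not overlap (1.24 to 1.90 TPM in WT kidneys, against 0.734 to 0.989 TPM in chow). The WT over chow ratio of Abcc6 was 0.12 in TMM-scaled CPM and 1.20 in TPM, again without overlap in TPM (5.11 to 7.14 in WT kidneys, against 2.48 to 2.86 in chow). With library size alone the median shift for KO-labelled over WT is smaller (-0.08), but the share of higher calls goes from 54.1% to 37.1%. For antibody over IgG the shift is -0.25 and that share goes from 49.3% to 22.2%. TMM factors were 0.882 to 0.945 with the antibody and 0.968 to 1.18 with IgG.

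Levels of different genes can be set side by side only per transcript length, in TPM. In KO-labelled kidneys the order was Spp1 at 12235 TPM, Mgp at 673, Alpl at 149, Slc20a1 at 75.9, Slc20a2 at 12.5, Abcc6 at 12.4, Ank at 3.37 and Phospho1 at 2.77 TPM (means of 6 libraries). Slc20a2 and Abcc6 were not apart beyond their spread there, nor were Ank and Phospho1. In WT kidneys Spp1 had 16466 TPM, Mgp 480, Slc20a1 122, Alpl 103, Slc20a2 12.3, Abcc6 6.15, Ank 2.50 and Phospho1 1.51 TPM, with overlapping ranges for Slc20a1 and Alpl. Summed over transcripts, Slc20a1 and Alpl thus stood in the opposite order in the 2 adenine groups. In WT kidneys the retained-intron entries Slc20a1-203 and Slc20a1-206 held 26.75% and 18.9% of Slc20a1 TPM. The coding Slc20a1-201 and Slc20a1-202 held 14.25 and 38.6 TPM there, against 97.1 TPM of Alpl-201. In KO-labelled kidneys they held 8.10 and 24.7 TPM, against 139.8 TPM of Alpl-201, so Alpl-201 exceeded either of them in both groups. In chow Spp1 had 895 TPM, Mgp 176, Alpl 127, Slc20a1 16.8, Slc20a2 8.35, Ank 3.61, Abcc6 2.67 and Phospho1 0.878 TPM, with no overlap between neighbours. The antibody group had 17410 TPM of Spp1, 126 of Mgp, 69.6 of Slc20a1, 63.8 of Alpl, 12.6 of Slc20a2, 1.56 of Ank, 1.28 of Abcc6 and 0.160 of Phospho1. The IgG group had 32827, 346, 86.9, 59.5, 10.8, 2.01, 0.926 and 0.258 TPM of the same genes in the same order. The mean TPM of Abcc6, Phospho1, Alpl and Ank was lower in both groups of the antibody experiment than in any group of the knockout experiment, with overlap between libraries for Ank, and this was not tested, since the experiments were scaled and run apart.

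Most of the signal of Spp1, Mgp and Alpl came from 1 transcript each. Spp1-201 held between 96.9% and 97.5% of Spp1 TPM, Mgp-201 between 98.6% and 99.7%, and Alpl-201 between 94.2% and 98.9% (group means). In TPM, Ank was split between the coding Ank-201 and Ank-202, which is annotated as a retained intron. Ank-202 took 50.9% ± 7.23 in KO-labelled kidneys (SD, n = 6), against 46.6% ± 5.53 in WT kidneys (SD, n = 6) and 51.2% ± 5.06 in chow (SD, n = 4). Abcc6-201, the full coding transcript, held 43.4% ± 4.19 of Abcc6 TPM in KO-labelled, against 42.5% ± 4.13 in WT libraries. Short retained-intron transcripts took most of the rest of TPM, but few reads. In KO-labelled libraries mean reads were 614.5 for Abcc6-201, against 14.6 for Abcc6-202 and 47.8 for Abcc6-205. The higher Abcc6 of KO-labelled kidneys was present in Abcc6-201 itself, at 5.31 TPM against 2.61 TPM in WT kidneys. For Slc20a2 the coding Slc20a2-201 held 65.7% ± 3.54 in KO-labelled, against 68.6% ± 2.40 in WT and 80.2% ± 5.49 in chow libraries, with 93.0% ± 2.25 with the antibody and 87.6% ± 3.60 with IgG. All these shares are of TPM, in which short transcripts with few reads weigh more than in the read counts that were tested. Mean reads in KO-labelled libraries were 664.9 for Slc20a2-201, against 17.3 for the short Slc20a2-202 and 85.1 for Slc20a2-204. For Ank-201 they were 131.3, against 70.0 for Ank-202. Shares of isoforms are estimates of the authors' quantification and were not tested.

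Other genes of the same pathways were read from lists. The counts of every list stand beside the shares of all genes called higher and lower. These shares were 25.1% and 21.3% for KO-labelled over WT, and 27.2% and 28.0% for antibody over IgG. They were 44.0% and 40.9% for WT over chow, and 40.2% and 39.9% for KO-labelled over chow. Whether any list differs from these shares was not tested. Phosphate transporters come first. Of 7 tested, 5 were higher and none lower in KO-labelled than in WT kidneys (median log2 0.50, all genes -0.02), and 6 were higher and 1 lower with the antibody than with IgG (1.25, all genes -0.04). In WT kidneys 1 was higher and 6 were lower than chow (-1.43, all genes 0.07), and in KO-labelled kidneys 1 was higher and 5 were lower than chow (-0.90, all genes 0.03). Slc34a3, a sodium-phosphate cotransporter of the proximal brush border, averaged 44.4 ± 11.2 CPM in KO-labelled kidneys, against 9.10 ± 3.20 in WT kidneys (SD, n = 6 each) and 82.7 ± 1.09 in chow (SD, n = 4). Its changes were 2.28 ± 0.19 for KO-labelled over WT and -3.18 ± 0.20 for WT over chow. Slc34a1, a relative at the same membrane, changed by 1.31 ± 0.16 for KO-labelled over WT and by 1.65 ± 0.16 for antibody over IgG. Slc34a2, which is better known from lung and intestine, was the exception. It averaged 32.3 ± 6.66 CPM in KO-labelled and 37.7 ± 2.57 CPM in WT kidneys (SD, n = 6 each), against 3.46 ± 0.883 CPM in chow (SD, n = 4), a log2 change of 3.44 ± 0.17 for WT over chow.

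Proximal tubule markers (Lrp2, Aqp1, Slc5a2, Slc22a6 and Kap) moved in these comparisons as well. Their sum was 2627 to 3729 CPM in KO-labelled, against 609 to 1331 CPM in WT libraries, and 17988 to 20910 CPM in chow. It was 11496 to 18649 CPM with the antibody, against 2844 to 6114 CPM with IgG. All 5 were called higher in KO-labelled than in WT kidneys and with the antibody than with IgG, beside 25.1% and 27.2% of all genes. All 5 were lower than chow in both adenine groups, beside 40.9% of all genes in WT and 39.9% in KO-labelled kidneys. The part of proximal tubule content in the values of Alpl, Ank, Slc34a1 and Slc34a3 was not tested.

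Of 14 genes of pyrophosphate and extracellular nucleotides, 5 were higher and 5 lower in KO-labelled than in WT kidneys (median 0.09, all genes -0.02). The inorganic pyrophosphatase of mitochondria, Ppa2, was higher by 1.00 ± 0.082, and the nucleoside diphosphatase Entpd5 by 0.65 ± 0.081, while Entpd2, which splits ATP at the cell surface, was lower (-0.56 ± 0.071). With the antibody 5 of 13 were higher and 4 lower than with IgG, among them Entpd5 (1.21 ± 0.13), Enpp3, a relative of Enpp1 (0.83 ± 0.081), and the ATP channel Panx1 (-0.85 ± 0.14). In WT kidneys 5 were higher and 8 lower than chow, with Ppa2 at -2.49 ± 0.089 and the cytosolic pyrophosphatase Ppa1 at -1.84 ± 0.068. With library size alone that split is 6 higher and 6 lower. In KO-labelled kidneys 3 were higher and 7 lower than chow, which becomes 8 higher and 5 lower with library size alone.

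Reads of the bone and cartilage markers were nearly absent. Of 17 mineral-binding and vitamin K cycle genes, 8 failed the filter in every comparison (Ibsp, Dmp1, Mepe, Dspp, Bglap, Bglap2, Ahsg and Ucma). The 5 bone and cartilage markers (Col2a1, Acan, Bglap, Sp7 and Dmp1) summed to 0.106 to 0.351 CPM in KO-labelled and 0.249 to 0.468 CPM in WT libraries. Their sum was at most 0.0524 CPM in chow, 0.0775 CPM in antibody and 0.171 CPM in IgG libraries. Every adenine library of the knockout experiment was thus above every chow library, at levels too low to be tested. Acan had no read in any library, and Bglap and Dmp1 had none in chow. Among the genes of that list that were tested, 3 were higher and 1 lower in KO-labelled than in WT kidneys, with Vkorc1, which recycles the vitamin K needed to activate Mgp, higher by 0.72 ± 0.083 and Sparc, a collagen-binding matrix protein, by 0.30 ± 0.066. With the antibody 3 of 8 were higher and 2 lower than with IgG, and Sparc (-1.22 ± 0.18) and Postn (-1.26 ± 0.21) were the lower ones. Umod, the main urinary protein of the thick ascending limb, was lower in WT kidneys than in chow (-1.64 ± 0.16). In all, 1 of 9 was higher and 4 lower than chow in WT kidneys, and 0 higher and 4 lower in KO-labelled kidneys, but with library size alone 5 were higher and 2 lower in each.

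Of 9 matrix vesicle and phospholipid genes, 1 was higher and 2 lower in KO-labelled than in WT kidneys. The choline phosphodiesterase Enpp6 was the higher one (1.04 ± 0.13), and it was higher with the antibody too (0.89 ± 0.15), where 2 others were lower. Against chow 5 were higher and 1 lower in WT kidneys, and 6 higher and 1 lower in KO-labelled kidneys (8 and 1 in each with library size alone). Of 11 osteogenic regulators and genes of brain calcification, 3 were higher and 4 lower in KO-labelled than in WT kidneys, and 2 of 10 were higher and 5 lower with the antibody than with IgG. Sox9, a transcription factor of cartilage and of repairing tubules, was lower in KO-labelled kidneys (-0.91 ± 0.11) and with the antibody (-1.26 ± 0.21), and it was higher by 5.33 ± 0.21 in WT kidneys than in chow. Pdgfb was also lower in KO-labelled kidneys (-0.78 ± 0.087), and Myorg, a glycosidase gene of brain calcification, was higher both there (0.57 ± 0.10) and with the antibody (0.90 ± 0.13). Against chow 5 were higher and 4 lower in WT kidneys, and 5 higher and 3 lower in KO-labelled kidneys, which library size alone turns into 9 and 2, and 7 and 0.

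Of 10 receptors of osteopontin, 3 were higher and 4 lower in KO-labelled than in WT kidneys, beside 25.1% and 21.3% of all genes. With the antibody 1 was higher and 4 lower than with IgG, beside 27.2% and 28.0% of all genes. Cd44, which binds osteopontin and hyaluronan, averaged 48.0 ± 8.07 CPM in KO-labelled kidneys, against 68.4 ± 8.27 CPM in WT kidneys (SD, n = 6 each) and 2.98 ± 0.302 CPM in chow (SD, n = 4). Its changes were -0.51 ± 0.10 for KO-labelled over WT, -0.78 ± 0.10 for antibody over IgG and 4.52 ± 0.16 for WT over chow. Itga8, the partner of integrin beta 1 in mesenchymal cells, was higher by 1.37 ± 0.11 in KO-labelled than in WT kidneys. Against chow 5 receptors were higher and 4 lower in WT kidneys, and 4 higher and 5 lower in KO-labelled kidneys, and with library size alone the counts are 7 and 3, and 6 and 2. Library size alone also moves the counts for antibody over IgG, to 0 receptors higher and 8 lower, 2 osteogenic genes higher and 7 lower, 1 vesicle gene higher and 5 lower, 1 mineral-binding gene higher and 2 lower, and 3 nucleotide genes higher and 6 lower. For KO-labelled over chow it leaves 3 phosphate transporters lower and 2 higher. For KO-labelled over WT it gives 4 phosphate transporters higher and 0 lower, and 2 mineral-binding genes higher and 1 lower. Vesicle genes are then 1 higher and 3 lower, osteogenic genes and receptors 3 and 5 each. Upper-quartile scaling differs there in phosphate transporters (5 and 1) and mineral-binding genes (2 and 2). All genes called were 2941 higher and 4994 lower with library size alone, against 3485 and 5072 with upper-quartile scaling.

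The variation of each member between libraries of the same group was compared with that of 11876 other expressed coding genes. As a description, the r of deviations from group means over the 16 libraries of the knockout experiment is given with the r over the 8 antibody libraries. Points of 1 library share its depth, scaling and cell content. Mgp was most like Bgn, a matrix proteoglycan gene, with an r of 0.85 in the knockout experiment and 0.87 in the antibody experiment. For Abcc6 the likest gene was Dbp, a transcription factor with a daily rhythm, at 0.94 and 0.69, and for Spp1 it was the retinol dehydrogenase gene Rdh10 at 0.96 and 0.44. Alpl was most like Pipox at 0.97, but the r over the antibody libraries was 0.05. Slc20a1 was most like Cys1 (0.95 and 0.41), Slc20a2 like Mrps24 (0.93 and 0.48), Ank like Nif3l1 (0.86 and 0.45) and Phospho1 like Hspg2 (0.91 and 0.54). Among all pairs of members, Alpl and Phospho1 had the r of largest size in the knockout experiment (-0.77), with an r of 0.01 in the antibody experiment. Some pairs kept their sign in both, such as Abcc6 and Spp1 (-0.72 and -0.41) and Ank and Slc20a2 (0.59 and 0.72). Others did not, such as Ank and Abcc6 (0.49 and -0.13).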

How the data were processed

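Libraries were stranded, with an input of 400 ng RNA according to the labels. The submitters' processing notes name Salmon, FastQC, DESeq and DESeq2 and the build GRCm39, with no versions. The authors deposited, per the file headers, an estimated count (expected count) and a TPM for every transcript, made by Salmon before deposit, and effective lengths, used here as an offset in 1 alternative. Of 116755 transcript identifiers 115636 (99.0%) matched GENCODE M21 (GRCm38); unmatched transcripts held 0.45% to 0.57% of reads and were left out. Mitochondrial genes took 16.82% to 29.96%. Expected counts were summed per gene and rounded.

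Genes were tested with edgeR 4.0.16 (quasi-likelihood F test, filterByExpr, TMM, Benjamini-Hochberg threshold 0.05, two-sided) in R 4.3.3, with no covariates: 16 libraries in the knockout fit, 8 in the antibody fit and 20 in the fit of the difference. SE values derive from the F statistic, and intervals are at 95%. The steps were tested on simulated data. Alternatives were RLE and upper-quartile scaling, no filter, a transcript-length offset, a replicate block, the compared groups alone, DESeq2 1.42.0 and leaving out each library. Library size alone and protein-coding transcripts only were added after seeing the data. Genes named were the 8 members, Enpp1, up to 4 genes per list and comparison with the largest called change, and the coding genes (mean CPM of at least 5) of likest variation. Members and lists were chosen with earlier results of these data known. Promoter sequences are from RefSeq GRCm38.p6.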

Additional observations from a re-analysis of the deposited data

Results flagged for a closer look

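Of 45 gene and group combinations examined for a library far from the others, 2 had one, both for Enpp1, and chance gives about 1 in 20. Enpp1 was 24.9 CPM in the fifth WT library on adenine, where the next highest of the 6 was 22.3 CPM. In chow the fourth library had 49.9 CPM, where the next lowest of the 4 had 55.4 CPM. None of the 8 members had such a library.

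For 4 members the change with the knockout label differed from the change with the antibody in a test of that difference over the 20 adenine libraries (edgeR, adjusted p under 0.05). Mgp differed by 1.73 on the log2 scale, being higher with the knockout label and lower with the antibody. Slc20a2 differed by -0.47, being called higher only with the antibody. Ank differed by 0.59 and Phospho1 by 1.34, both called higher in KO-labelled kidneys and not called with the antibody. The Phospho1 call (adjusted p = 0.0477) was lost under several settings, among them RLE scaling (0.0513) and the replicate block (0.115). The Ank call was lost with protein-coding transcripts only (0.0536), and the Slc20a2 call with library size alone (0.0936). Both experiments differ in depth and control mice, and what these contribute cannot be told apart.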

How the results depend on the processing

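All 7 calls for KO-labelled over WT kept their direction and call in every alternative run. Over all comparisons, leaving out 1 library kept 459 of 480 member results on their side of the threshold. DESeq2 was not run for every comparison and kept 32 of 32 results, where RLE scaling had 40. Called members ranged over the left-out libraries from 4 to 5 (higher, KO-labelled over chow), 2 to 3 (higher, antibody over IgG) and, for the difference between effects, 2 to 3 positive and 1 to 2 negative. Of all genes, 6695 to 6955, 4025 to 4448, 2397 to 3003 and 3145 to 3827 were called in the same order. RLE scaling and the length offset each gave 2 members negative for the difference, where 4047 and 3184 genes were negative. The offset gave 1 member higher with the antibody, where 4204 genes were higher. Upper-quartile scaling turned Slc20a2 for KO-labelled over WT to -0.027 and gave 4495 genes positive and 2014 negative for the difference (69.1% of calls positive, against 43% with TMM). Its share of higher calls was 40.7% for KO-labelled over WT and 31.1% for antibody over IgG, against 54.1% and 49.3% with TMM; it moved the median gene by 0.23 for WT over chow, 0.16 for KO-labelled over chow and -0.16 for antibody over IgG.

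Library size alone turned Slc20a2 to -0.046 (KO-labelled over WT), 0.18 (WT over chow) and 0.13 (KO-labelled over chow), and Phospho1 to 0.35 (WT over chow). It gave 5 of 8 members higher in WT than chow, where 11119 of 16959 genes were called higher and 3688 lower, 1 member lower in KO-labelled than chow with 10922 genes higher and 2992 lower, 1 member higher with the antibody with 2071 genes higher and 7270 lower (22.2% higher), and 6 members positive and 0 negative for the difference with 4938 and 943 genes (84% positive). For KO-labelled over WT 37.1% of calls were then higher. The cause was not tested.

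Enpp1, not called in the 3 comparisons given here, turned to -0.017 (upper quartile) and -0.034 (library size alone) for KO-labelled over WT. For antibody over IgG it turned to 0.014 (RLE), 0.22 (length offset) and 0.027 (DESeq2), and over left-out libraries it ran from -0.67 to 0.30. For the difference it turned to 0.13 (upper quartile), 0.31 (replicate block), 0.24 (library size alone), 0.34 (coding transcripts only), and over left-out libraries it ran from -0.32 to 0.66.

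Replicate numbers did not pair the samples: same-numbered libraries correlated from -0.144 to 0.0648 (KO-labelled and WT, 6 pairs), -0.0678 to -0.00699 (KO-labelled and chow), -0.0402 to 0.0684 (WT and chow) and -0.0806 to -0.00963 (antibody and IgG). With the replicate block the members called for KO-labelled over WT stayed the same. Phospho1 was then not called for KO-labelled over chow (0.57, adjusted p = 0.0947) or for the difference (1.32, adjusted p = 0.115). Low counts limit Phospho1 in the antibody experiment, at 5 to 31 reads per library in the deeper of the 2 experiments.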
